A study of Rattus norvegicus with 20 samples.

Results

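MicroRNAs (miRNAs) are short RNAs that guide the Argonaute proteins to target messages, mostly through bases 2 to 8, the seed. They were compared between round spermatids and pachytene spermatocytes of rats given saline, over the 209 miRNAs that were detected on all 5 arrays of at least 1 of these cell types. The array carries 677 rat miRNAs, of which 217 were tested in the series as a whole, since a miRNA was tested where all arrays of any of its 4 groups detected it. Of the 209, 166 were detected on all 10 saline arrays, 31 on all 5 pachytene arrays but fewer of round spermatids, and 12 on all 5 round spermatid arrays but fewer of pachytene spermatocytes.

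All rats were male Sprague-Dawley animals. The saline rats received saline by gavage in place of cyclophosphamide, which the other 10 of the 20 arrays concern, at 6 mg/kg on 6 days a week for 4 weeks. The rats' age and the purity of the cell fractions are not given in the sources used here. Cells were separated by sedimentation at unit gravity in the STA-PUT system, and 100 ng of total RNA per sample was labelled with Cy3. Pachytene arrays carry the numbers 13, 16, 25, 26 and 28 and round spermatid arrays 15, 16, 17, 25 and 28, taken here as rat numbers, so p-values measure the spread between samples that carry these numbers. In bulk samples of this kind, fewer cells of a type and less RNA per cell cannot be told apart.

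Pachytene spermatocytes are in the long prophase of meiosis, when homologous chromosomes pair and recombine and the X and Y chromosomes are transcriptionally silenced as a whole. Both meiotic divisions lie between them and round spermatids, the haploid cells that build the acrosome and condense the nucleus. miR-34 and miR-449 form a family that is abundant in both stages, and male mice without its miR-34b, miR-34c and miR-449 genes are infertile. A group of fast-evolving miRNA genes on the X chromosome, the miR-506 family, is expressed mainly in testis, and many X-linked miRNAs escape the silencing in meiosis.

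The mature sequences below, 5′ to 3′, carry the main findings. The letters in capitals mark the seed. They come from RefSeq on the rat assembly GRCr8, whose entries matched 188 of the 209 miRNAs by name, while 21 had no match. The first set shares the miR-34 and miR-449 seed and is shown because its members did not move together.
miR-34a-5p: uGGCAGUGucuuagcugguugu
miR-34b-5p: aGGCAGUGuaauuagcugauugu
miR-34c-5p: aGGCAGUGuaguuagcugauugc
miR-449a-5p: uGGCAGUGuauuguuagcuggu

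The second set holds the 5 members of the miR-17 seed, all lower in round spermatids, followed by miR-19b-3p, which is processed from a shared transcript with miR-17-5p but has another seed and was higher.
miR-17-5p: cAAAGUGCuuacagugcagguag
miR-20a-5p: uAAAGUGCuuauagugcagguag
miR-20b-5p: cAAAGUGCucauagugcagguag
miR-93-5p: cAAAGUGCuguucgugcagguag
miR-106b-5p: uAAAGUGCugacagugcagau
miR-19b-3p: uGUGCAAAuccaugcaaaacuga

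The third set holds pairs that differ by 1 base and is shown because miR-7 and miR-101 changed unequally between the copies, the former by an amount that depends on the floor of the signal, while a difference within the miR-23 and miR-27 pairs did not pass. These are miR-7a and miR-7b, miR-101a and miR-101b, miR-23a and miR-23b, and miR-27a and miR-27b. How far a probe binds the near-identical copy was not tested, so the values of such a pair cannot be told apart with certainty.
miR-7a-5p: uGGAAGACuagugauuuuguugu
miR-7b: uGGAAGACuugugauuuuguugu
miR-101a-3p: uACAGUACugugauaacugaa
miR-101b-3p: uACAGUACugugauagcugaa
miR-23a-3p: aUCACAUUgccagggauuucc
miR-23b-3p: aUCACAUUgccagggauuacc
miR-27a-3p: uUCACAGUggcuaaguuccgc
miR-27b-3p: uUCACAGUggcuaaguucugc

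The fourth set holds X-linked miRNAs. miR-201-5p and miR-547-3p had the largest decreases of the germ cell cluster on the X chromosome. miR-221-3p and miR-222-3p share a seed and both fell. The arms of miR-652 moved in opposite directions, though not when the arrays were scaled to labelling spike-ins.
miR-201-5p: cACUCAGUaaggcauuguuc
miR-547-3p: aUUGGUACuucuuuaagugaga
miR-221-3p: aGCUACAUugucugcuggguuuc
miR-222-3p: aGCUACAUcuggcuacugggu
miR-652-5p: aCAACCCUaggagggggugccau
miR-652-3p: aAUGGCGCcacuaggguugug

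The last set holds further miRNAs with increases described below, which are known from smooth muscle, mesenchyme, myeloid cells and cell cycle exit.
miR-143-3p: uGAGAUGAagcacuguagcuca
miR-145-5p: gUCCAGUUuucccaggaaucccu
miR-199a-3p: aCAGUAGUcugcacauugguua
miR-223-3p: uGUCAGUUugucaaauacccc
miR-195-5p: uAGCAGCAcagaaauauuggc
miR-497-5p: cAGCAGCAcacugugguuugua

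Values are log2 of the processed Cy3 signal after each array was scaled to its 75th percentile over 2176 spots well above background on all arrays, with a floor of 3.61. Differences are round spermatids minus pachytene spermatocytes on this log2 scale, with their SE from limma and a p adjusted over all 217 tested miRNAs by Benjamini and Hochberg. A miRNA rose or fell where the adjusted p was under 0.05. Feature Extraction detected 193 to 250 miRNAs per array in round spermatids and 205 to 281 in pachytene spermatocytes, a difference of -18.6 in the means (exact two-sided permutation test p = 0.302, n = 5 each). Replicate arrays correlated at r between 0.983 and 0.994 in pachytene spermatocytes and between 0.963 and 0.990 in round spermatids. The median SD of a miRNA was 0.165 and 0.253. Slide 3 held 3 of the 5 round spermatid arrays and no pachytene array, and slides 1 and 2 held 1 each beside 2 and 3 pachytene arrays. The spermatid array on slide 2, that of rat 16, had the lowest total gene signal of the series, 28490. It was also scaled up most, by a factor of 1.97. All differences given within slide 2 rest on this dim array.

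Many miRNAs differed between the cell types. Of the 217 tested, 105 passed (48.4%), 57 higher (26.3%) and 48 lower (22.1%) in round spermatids, and all 105 belong to the 209. At an unadjusted p under 0.05 there were 117. The median difference over all tested was 0.02. The change was over 2-fold for 23 that rose and 16 that fell. The 2 groups of arrays did not overlap for 75 of the 209, of which 73 were among the 105 and 2 did not pass. Among the 166 detected on every saline array, 47 rose, 39 fell and 80 did not pass. When blocked by slide limma called 57 higher and 51 lower, and 86 of the 105 calls remained. Within slide 1 it called 34 higher and 22 lower, and within slide 2 73 and 52, where a single round spermatid array was in each case assumed to vary like the other groups. With normexp background correction, and relative to its median of 0.44, it called 10 higher and 42 lower, and 36 of the 105 calls remained.

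The directions are relative to the signal of the bright spots on each array. Scaled instead to 2 labelling spike-ins, the median over all tested miRNAs was -0.98, and limma called 4 higher and 157 lower. Of the 57 that rose, 27 stayed above 0 on that scale and 30 did not. The split was 21 higher and 66 lower without scaling (median -0.37), 37 and 78 with the percentile over all probes (-0.15), 41 and 72 with the total gene signal (-0.15), and 44 and 62 with quantile normalization (-0.05). The spike-in signal itself was 8.56 ± 0.19 (SD, n = 5) on the log2 scale in pachytene and 9.27 ± 0.43 in round spermatid arrays (exact two-sided permutation test p = 0.00794, the smallest that 5 against 5 can give), and the 3 arrays of slide 3 were the brightest. Without slide 3 the median on the spike-in scale was -0.78. The part of slide and scan in this shift was not tested.

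**Figure D1:**
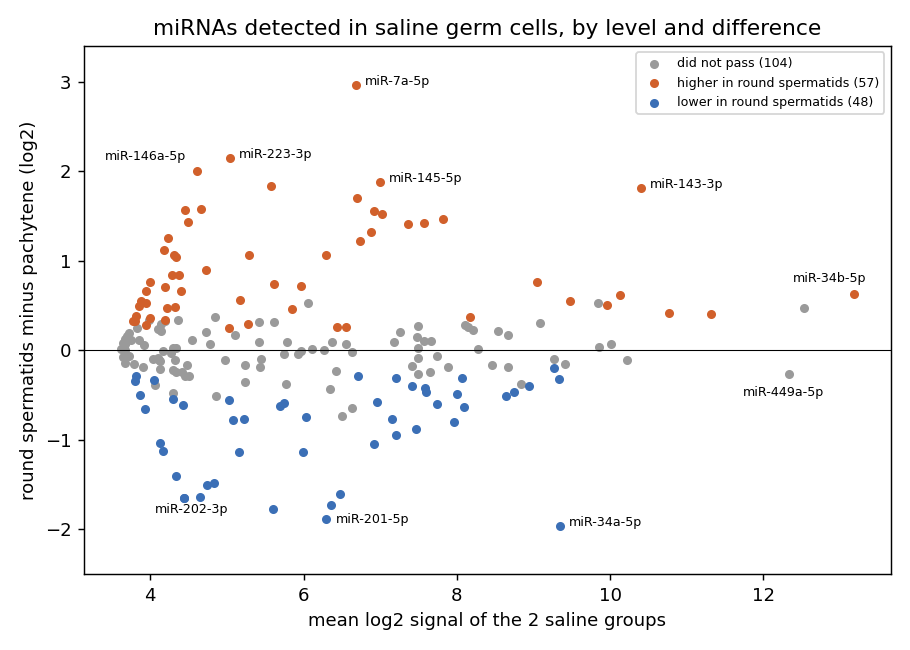
Difference between round spermatids and pachytene spermatocytes of saline rats (log2) against the mean log2 signal of both groups, 1 point for each of the 209 miRNAs, coloured by the limma call. The 57 that rose and 48 that fell lie at all levels, with miR-7a-5p at 2.97 at the top and miR-34a-5p at -1.96 at the bottom. On the spike-in scale the median of all tested miRNAs lies at -0.98.

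The miRNAs that mark male germ cells, miR-34b-5p, miR-34c-5p and miR-449a-5p, were detected on all 10 saline arrays.

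miR-34a, a target of p53 that restrains the cell cycle, had the largest decrease of any miRNA detected on every array. The signal of miR-34a-5p was 10.54, 10.16, 10.18, 10.50 and 10.23 in pachytene spermatocytes of rats 13, 16, 25, 26 and 28. In round spermatids of rats 15, 16, 17, 25 and 28 it was 8.12, 8.20, 8.89, 8.45 and 8.16. All 5 spermatid arrays lay below all pachytene arrays, by 1.27 or more. It fell by 1.96 ± 0.19 (SE, limma adjusted p = 1.17e-07), with -2.29 when blocked by slide, -2.23 within slide 1 and -2.10 within slide 2.

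miR-34b-5p had 13.07, 13.21, 12.67, 12.65 and 12.73 in pachytene spermatocytes against 13.84, 12.87, 13.93, 13.15 and 13.68 in round spermatids. The groups overlapped at rat 16. It rose by 0.63 ± 0.19 (limma adjusted p = 0.0099), with 0.43 in the slide block, 0.70 within slide 1 (adjusted p = 0.0544) and 0.19 within slide 2 (adjusted p = 0.25), where it did not pass. Without slide 3 it was 0.49 and did not pass (adjusted p = 0.123). On the spike-in scale the value was -0.56. miR-34c-5p, made from a shared transcript with miR-34b, had 12.29 ± 0.30 (SD, n = 5) and 12.76 ± 0.43, a difference of 0.47 ± 0.20 that did not pass (0.0584). miR-449a-5p had 12.46 ± 0.27 and 12.20 ± 0.42, a difference of -0.26 ± 0.19 that did not pass (0.288), though it did when blocked by slide (-0.49, adjusted p = 0.0164).

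The differences between these members were tested on the per-array difference of their signals, for the 82 pairs of miRNAs that share a seed. Limma called 49 of the 82 pairs (59.8%). The change of miR-34a-5p minus that of miR-34b-5p was -2.58 ± 0.26 (adjusted p = 1.38e-07, over the 82 pairs), minus that of miR-34c-5p -2.43 ± 0.28 (6.78e-07) and minus that of miR-449a-5p -1.70 ± 0.26 (2.31e-05). The pair of miR-34b-5p and miR-449a-5p parted by 0.89 ± 0.05 (1.09e-10) and that of miR-34b-5p and miR-34c-5p by 0.15 ± 0.05 (0.0149). The ratio of 2 signals above the floor within an array does not depend on a scaling by 1 factor per array. Of the 7 members of the list, which includes both arms, 1 rose, 2 fell and 4 did not pass, with a median of -0.26 beside 0.02 for all tested. That median was -0.49 when blocked by slide, -0.14 within slide 1 and 0.08 within slide 2. The other decrease was that of miR-449a-3p.

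**Figure D2:**
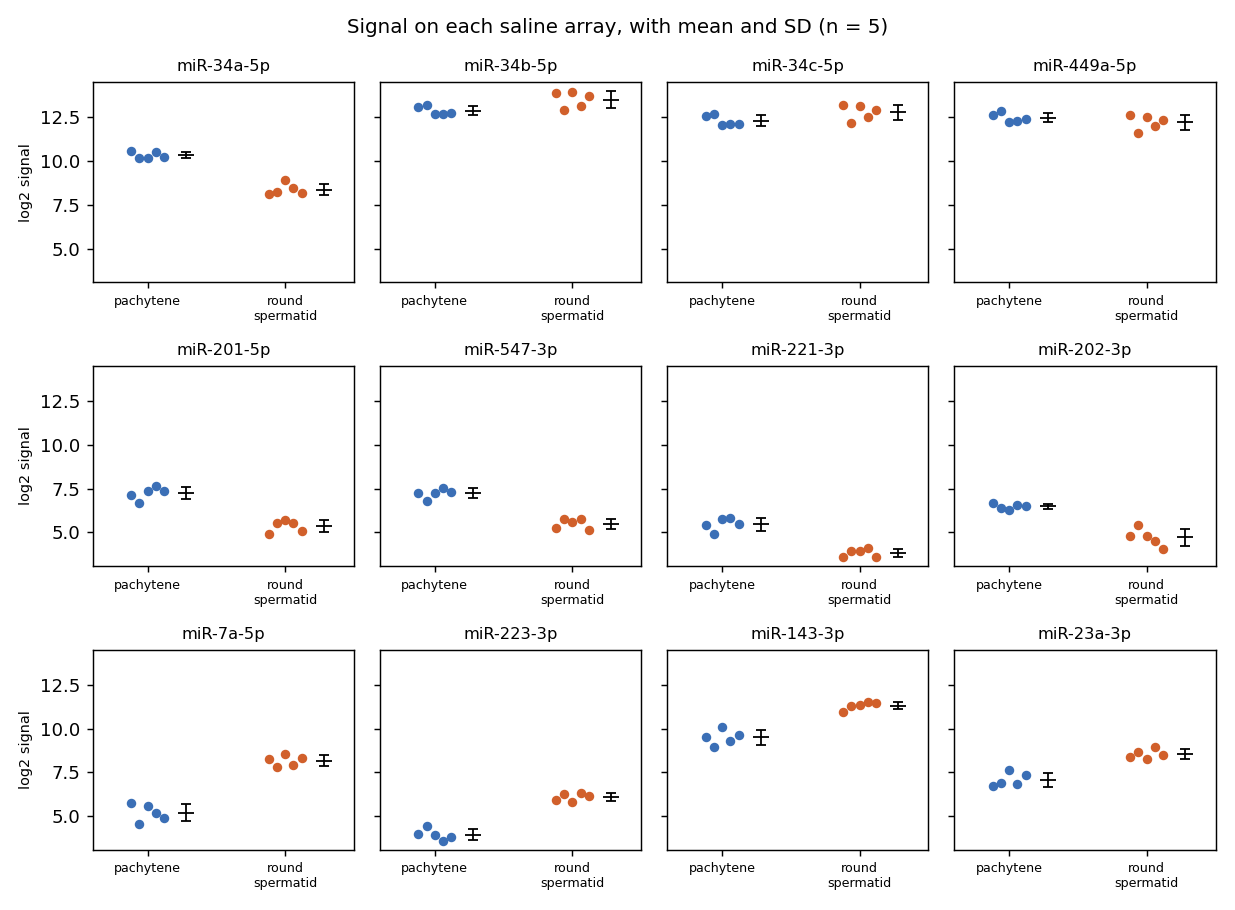
Log2 signal of 12 miRNAs on each of the 10 saline arrays, with the mean and SD of the 5 arrays of each group. miR-34a-5p fell by 1.96 while miR-34b-5p rose by 0.63 with overlapping arrays, though miR-34b-5p turned to -0.56 on the spike-in scale, and the groups of the 8 panels from miR-201-5p on do not overlap.

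The miRNAs of the X-linked germ cell cluster, the miR-506 family region, were mostly lower in round spermatids. Of its 22 members, 13 fell, 2 rose and 7 did not pass, with a median of -0.38. The other scalings lowered the median of all tested miRNAs as well. Relative to that median, the list's median was -0.42 without scaling and -0.48 on the spike-in scale, but 3 and 8 members fell there in place of 13. When blocked by slide 15 fell and 0 rose, and 4 fell within slide 1 and 15 within slide 2.

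miR-201-5p fell most, by 1.88 ± 0.24 (limma adjusted p = 1.58e-06). It had 7.15, 6.68, 7.35, 7.65 and 7.37 in pachytene spermatocytes against 4.90, 5.56, 5.71, 5.53 and 5.10 in round spermatids. The groups did not overlap. miR-547-3p had 7.26, 6.77, 7.24, 7.54 and 7.32 against 5.27, 5.76, 5.60, 5.74 and 5.12, and fell by 1.73 ± 0.17 (1.17e-07). miR-3585-5p, whose gene neighbours these 2 but which was not on the list, had 7.28 ± 0.30 (SD, n = 5) and 5.68 ± 0.27 and fell by 1.60 ± 0.21 (2.30e-06). These 3 precursors each lie within 10 kb of the next in RefSeq. The other measured arms of miR-547 and miR-201 were called lower too, but both lay at or near the floor in round spermatids. The fitted differences of -0.49 for miR-547-5p and -1.64 for miR-201-3p depend on it, and were -0.80 and -2.23 with a floor 4 times lower. Within slides 1 and 2 the differences were -2.02 and -1.90 for miR-201-5p, -1.75 and -1.60 for miR-547-3p, and -1.66 for miR-3585-5p on both.

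Elsewhere in the cluster the changes were smaller. The 10 members of the neighbourhood of Mir463, Mir465, Mir471, Mir741, Mir871, Mir878, Mir880 and Mir881, with Mir3580, lay between -0.63 and 0.21, and 5 fell. The largest increase was that of miR-883-5p, which had 6.42 ± 0.09 and 6.69 ± 0.20. It rose by 0.27 ± 0.10 (limma adjusted p = 0.0386) and did not pass when blocked by slide (0.16, adjusted p = 0.236), nor without pachytene rat 25, 26 or 28 or spermatid rat 15, 17 or 28 (highest adjusted p = 0.101). miR-881-3p had 4.22 ± 0.25 and 3.88 ± 0.07 and fell by 0.33 ± 0.13 (0.0386). It did not pass without pachytene rat 26 or 28 or spermatid rat 15, 17, 25 or 28 (highest adjusted p = 0.12).

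Among the 188 miRNAs with a RefSeq match, 39 have a gene on the X chromosome only. Of these 19 fell (48.7%), 5 rose (12.8%) and 15 did not pass, with a median of -0.31. Of the 149 others 27 fell (18.1%), 50 rose (33.6%) and 72 did not pass, with a median of 0.10. The list of 16 X-linked miRNAs outside the germ cell cluster had 6 that fell, 3 that rose and 7 that did not pass (median -0.20).

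miR-221 and miR-222, X-linked neighbours that repress the KIT receptor and help keep spermatogonia undifferentiated, both fell. miR-221-3p had 5.40, 4.91, 5.77, 5.83 and 5.46 in pachytene spermatocytes against 3.61, 3.92, 3.92, 4.12 and 3.62 in round spermatids, near the floor. It fell by 1.64 ± 0.21 (limma adjusted p = 2.53e-06). miR-222-3p was detected on 1 spermatid array and had 5.04 ± 0.24 against 3.63 ± 0.05, a fitted difference of -1.40 that depends on the floor. Their differences did not part by the test (0.23 ± 0.12, adjusted p = 0.0995). The test cannot show that the falls were alike, since both miRNAs lay at or near the floor in round spermatids. miR-351-3p of the X-linked miR-322 and miR-503 cluster was detected on all 5 pachytene and no spermatid array and was at least 1.31-fold lower in round spermatids. Its fitted difference of -0.65 (limma adjusted p = 2.36e-05) depends on the floor. In that cluster 1 of 3 fell, and miR-450a-5p had a difference of 0.33 ± 0.14 that did not pass (0.0655).

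The X-linked miR-223-3p went the other way. This miRNA, typical of neutrophils and their precursors, had 3.98, 4.45, 3.91, 3.62 and 3.84 in pachytene spermatocytes, close to the floor, and 5.95, 6.25, 5.84, 6.34 and 6.16 in round spermatids. The groups were apart by 1.39. It rose by 2.15 ± 0.15 (limma adjusted p = 2.07e-09), by 1.73 within slide 1 and 2.46 within slide 2, and stayed above 0 on the spike-in scale. Of the 4 members of the blood cell list it alone passed. miR-150-3p had a difference of -0.47 ± 0.24 (0.114). The list's median was 0.14 and turned to -0.09 with the percentile over all probes, -0.09 with the total gene signal, -0.32 without scaling and -0.90 on the spike-in scale. Of the 10 miRNAs of the list on the array, 4 are among the 209. Their summed signal, on the linear scale, was 105 to 135 on pachytene and 155 to 206 on spermatid arrays, and the part of blood cells in the result was not tested.

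The largest change was that of miR-7a-5p, a miRNA abundant in neuroendocrine cells and pituitary. It had 5.75, 4.58, 5.58, 5.20 and 4.89 in pachytene spermatocytes. In round spermatids it had 8.29, 7.81, 8.53, 7.92 and 8.30. Every spermatid array lay above every pachytene array. It rose by 2.97 ± 0.21 (limma adjusted p = 2.07e-09), by 3.12 within slide 1 and 2.58 within slide 2, and stood at 1.78 on the spike-in scale. miR-7a-2-3p, the passenger arm of a miR-7a gene, was detected on no pachytene and all 5 spermatid arrays and was at least 1.52-fold higher. Its fitted rise was 0.67 (limma adjusted p = 1.74e-05). miR-7b was detected on 1 pachytene array, had its signal at the floor on all 5 and 4.16 ± 0.36 in round spermatids, and its fitted rise was 0.56 ± 0.15 (0.00441), which did not pass when blocked by slide (adjusted p = 0.0629). All 3 miR-7 members thus rose, with a median of 0.67, which was 0.24 on the spike-in scale. With a floor 4 times lower the fitted rises of miR-7a-2-3p and miR-7b were 2.42 and 2.33, and the median was 2.42. The change of miR-7a-5p minus that of miR-7b (miR-7a-5p / miR-7b) was 2.41 ± 0.24 (limma adjusted p = 1.32e-07 over the pairs) and 0.64 with the lower floor (adjusted p = 0.0281).

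The miR-23, miR-24 and miR-27 miRNAs, made from a pair of clusters and known from blood vessels and blood cells, rose as a group. All 5 members rose, with a median of 1.41, between 0.93 and 1.37 under the other scalings, and 0.22 on the spike-in scale. With normexp 4 rose and the median was 0.61, relative to all tested. miR-23a-3p had 6.71, 6.90, 7.63, 6.82 and 7.34 in pachytene spermatocytes against 8.37, 8.68, 8.29, 8.94 and 8.49 in round spermatids. The groups did not overlap, and it rose by 1.47 ± 0.19 (limma adjusted p = 1.89e-06). Its near copy miR-23b-3p rose by 1.42 ± 0.16 (4.05e-07), and the difference between the pair was 0.05 ± 0.09 (adjusted p = 0.664). The smallest increase was that of miR-27a-3p, 1.22 ± 0.21 (6.81e-05), which within slide 2 was 0.74 and did not pass (0.201).

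The list of miRNAs known from mesenchyme, smooth muscle, muscle and endothelium also rose. Of its 9 members, 8 rose and 1 did not pass, with a median of 1.57, which was 0.51 on the spike-in scale. With normexp 2 rose and the median was 0.50, relative to all tested, and within slide 1 5 rose with a median of 1.27. miR-143-3p, a smooth muscle miRNA, had 9.52, 8.95, 10.06, 9.31 and 9.65 in pachytene spermatocytes. In round spermatids it had 10.96, 11.31, 11.33, 11.53 and 11.43. The groups did not overlap. It rose by 1.81 ± 0.23 (limma adjusted p = 1.70e-06), by 1.72 within slide 1 and 1.64 within slide 2.

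Its cluster mate miR-145-5p rose by 1.88 ± 0.32 (limma adjusted p = 6.00e-05), the largest increase of the list, and by 1.44 within slide 1, where it did not pass (0.0515). It had 5.91, 5.26, 6.52, 6.04 and 6.55 against 7.03, 8.72, 7.80, 8.26 and 7.88. miR-199a-3p, a mesenchymal miRNA, had 4.66 ± 0.14 (SD, n = 5) and 6.50 ± 0.57, and miR-199a-5p 3.87 ± 0.19 and 5.45 ± 0.70. They rose by 1.84 ± 0.27 and 1.58 ± 0.29. miR-133b-3p of muscle, near the floor on pachytene arrays, had a fitted rise of 1.57, which was 1.92 with a floor 4 times lower. The exception was miR-126a-3p, the endothelial miRNA, with 6.86 ± 0.74 and 6.14 ± 0.41 and a difference of -0.73 ± 0.31 that did not pass (0.0583).

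The summed signal of these 9 miRNAs, on the linear scale, was 738 to 1500 on pachytene and 2440 to 3710 on spermatid arrays, with no overlap. The signal of miR-143-3p, the brightest of the 9, made up most of that sum in both cell types. The sum therefore largely repeats the rise of this miRNA. Of the 18 miRNAs of the list on the array, 9 are among the 209. Of these markers of other cell types 8 rose, among them miR-143-3p, miR-145-5p and miR-199a, as did the miR-23, miR-24 and miR-27 miRNAs. The part of other cell types in the result was not tested. The gonadal list holds miR-202-3p, a miRNA of Sertoli and other gonadal cells, which had 6.68, 6.42, 6.29, 6.57 and 6.49 in pachytene spermatocytes against 4.81, 5.42, 4.78, 4.50 and 4.08 in round spermatids. It fell by 1.77 ± 0.18 (limma adjusted p = 1.30e-07), by 1.74 within slide 1 and 1.03 within slide 2. miR-132-3p, detected on 1 pachytene array with its signal at the floor on all 5, had a fitted rise of 0.33 ± 0.10 (0.0107). The summed signal of these 3 gonadal miRNAs overlapped, at 381 to 480 and 248 to 588. Most of that sum was the signal of miR-212-3p, the brightest of the 3, described below, while the groups of miR-202-3p did not overlap.

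The miR-15 and miR-16 family restrains cyclins and other cell cycle genes. Most of its members were higher in round spermatids, though on the spike-in scale the list's median was -0.46. Of 5 listed members 4 rose and 1 did not pass, with a median of 0.62. With normexp 2 rose with a median of 0.16, relative to all tested. miR-497-5p had 5.77, 5.77, 6.09, 5.58 and 6.01 against 7.57, 7.25, 7.35, 7.93 and 7.63, and rose by 1.70 ± 0.18 (limma adjusted p = 1.45e-07). Its cluster mate miR-195-5p rose by 1.52 ± 0.15 (1.17e-07). The groups of both did not overlap. miR-16-5p, which shares their seed, rose by 0.41 ± 0.13 (0.0153) with overlapping groups, and miR-15b-3p, of another seed, had 0.02 ± 0.07 (0.822). miR-195-5p changed by 1.12 ± 0.22 more than miR-16-5p (adjusted p = 0.000233 over the pairs), and miR-497-5p by 1.30 ± 0.24 more (0.000136). The X-linked miR-322-5p carries this seed but was not on the list, and its difference of -0.11 did not pass. Its change minus that of miR-497-5p was -1.81 ± 0.17 (limma adjusted p = 5.91e-08 over the pairs). miR-195-5p changed by 1.63 ± 0.15 more than miR-322-5p (5e-08).

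The miR-17 seed went the other way. All 5 of its members fell, by 0.88 ± 0.11 for miR-17-5p (limma adjusted p = 2.23e-06), 0.77 for miR-106b-5p, 0.48 for miR-20b-5p, 0.40 for miR-20a-5p and 0.30 ± 0.12 for miR-93-5p. These miRNAs promote proliferation. miR-17-5p had 7.80, 7.91, 8.01, 7.98 and 7.86 against 7.25, 6.78, 7.02, 6.95 and 7.15, with no overlap. miR-93-5p had an adjusted p of 0.0472, which was lost without pachytene rat 13, 16, 25 or 26 or spermatid rat 16, 25 or 28 (highest adjusted p = 0.138). Within slide 1 none of the 5 passed, and the values were -0.60 for miR-17-5p and -0.15 for miR-93-5p, beside -1.17 and -0.60 within slide 2.

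Other miRNAs of the cluster that holds miR-17, and of its paralogs, were not called lower. Among them miR-92a-3p had a difference of -0.37, close to that of miR-20a-5p, but did not pass. miR-19b-3p had 10.68, 10.86, 10.21, 10.49 and 10.55 against 11.20, 10.61, 11.19, 10.78 and 11.13, and rose by 0.42 ± 0.14 (limma adjusted p = 0.0185) with overlapping groups. The call was lost when blocked by slide (0.27, adjusted p = 0.0949) and without pachytene rat 25 or spermatid rat 15 (highest adjusted p = 0.0612), and the spike-in value was -0.77. Of the 13 members of the list 5 fell, 2 rose and 6 did not pass, with a median of -0.14. The median was -0.37 with a floor 4 times lower and -0.04 within slide 1, where 0 fell and 0 rose. miR-17-5p parted from miR-93-5p by 0.58 ± 0.07 (adjusted p = 1.28e-06 over the pairs). miR-20a-3p, the passenger arm, was detected on all 5 pachytene and no spermatid array, its difference of -0.14 ± 0.08 did not pass (0.139), and its bound gives no fold.

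Near copies of a miRNA did not always move alike. miR-101a-3p and miR-101b-3p differ by 1 base. miR-101a-3p rose by 0.895 ± 0.20 (limma adjusted p = 0.00082) and miR-101b-3p fell by 0.29 ± 0.10 (0.0224). They had 4.28 ± 0.36 (SD, n = 5) against 5.17 ± 0.36, and 6.86 ± 0.09 against 6.57 ± 0.20. The pair parted by 1.18 ± 0.20 (adjusted p = 4.33e-05 over the pairs). The rise was 1.05 within slide 1 and 0.31 within slide 2, where it did not pass (0.0923), and the value was -0.29 on the spike-in scale. The fall was lost without pachytene rat 26 or 28 or spermatid rat 16 (highest adjusted p = 0.066). miR-146a-5p and miR-146b-5p, both dampers of NF-kappa B signalling with 1 seed, parted too. miR-146a-5p had its signal at the floor on all pachytene arrays, of which 3 detected it, and 5.70, 6.16, 4.89, 6.00 and 5.31 in round spermatids. Its fitted rise of 2.01 ± 0.19 depends on the floor and was 2.93 with a floor 4 times lower, while miR-146b-5p had 0.11 (0.539).

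Of the 23 seeds shared by 2 or more of the 188 matched miRNAs, which take in 64 of them, 8 had all members called in 1 direction and 2 held members called in both. The 2 were the seeds of miR-34a and of miR-101. miR-103-3p and miR-107-3p, which repress Dicer and metabolic genes and differ by 1 base, both fell, by 0.46 ± 0.08 (limma adjusted p = 6.47e-05) and 0.79 ± 0.11 (3.79e-06). miR-129-2-3p and miR-129-1-3p both fell, by 1.48 ± 0.15 and 1.13 ± 0.19. miR-181a-5p fell by 0.74 ± 0.14 (0.000111). miR-181b-5p, detected on no spermatid array, was at least 1.08-fold lower. Its fitted difference of -0.34 (limma adjusted p = 0.0096) depends on the floor, and the slide block ended the call (adjusted p = 0.0747).

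**Figure D3:**
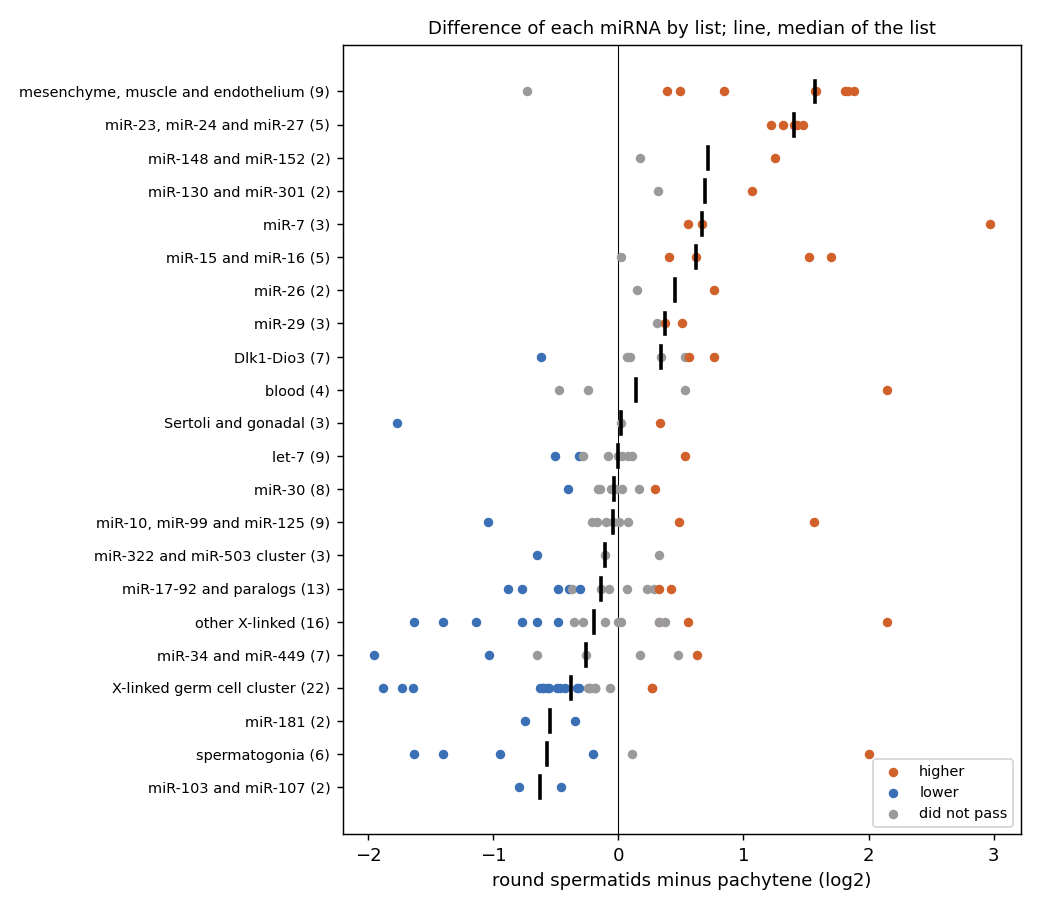
Difference between round spermatids and pachytene spermatocytes (log2) of each miRNA by list, with the number of its members and a line at the list's median, coloured by the limma call. The 5 miR-23, miR-24 and miR-27 miRNAs lie between 1.22 and 1.47 and the X-linked germ cell cluster has a median of -0.38. On the spike-in scale the miR-15 and miR-16, miR-29, miR-26, miR-130 and miR-301, miR-148 and miR-152, Dlk1-Dio3, blood and gonadal medians turn below 0. The last 2 also do so without scaling, with the percentile over all probes and with the total gene signal, and miR-29 and miR-26 without scaling.

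Other large changes concerned single miRNAs. miR-10b-5p, which lies in a Hox cluster, had 6.13 ± 0.23 and 7.69 ± 0.20 (SD, n = 5) and rose by 1.56 ± 0.16 (limma adjusted p = 1.45e-07). miR-100-5p of the related miR-99 family fell by 1.04 ± 0.13 (1.66e-06). In the list of miR-10, miR-99 and miR-125, 2 rose, 1 fell and 6 did not pass, with a median of -0.04. miR-124-3p, a neuronal miRNA close to the floor in pachytene spermatocytes, rose by 1.43 ± 0.16 (4.05e-07). The groups of these 3 did not overlap.

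miR-338-3p fell by 1.51 ± 0.24 (limma adjusted p = 1.99e-05) and had 5.61, 4.74, 5.60, 5.70 and 5.85 in pachytene spermatocytes against 3.92, 3.89, 4.72, 3.67 and 3.75 in round spermatids. Pachytene rat 16 and spermatid rat 17 came within 0.02 of each other. miR-652-3p fell by 1.14 ± 0.12 (1.98e-07). miR-204-5p, a miRNA of the spermatogonial list, fell by 0.95 ± 0.13 (5.86e-06). Of the 6 members of that list 4 fell, 1 rose and 1 did not pass, with a median of -0.57. The member that rose was miR-146a-5p. The list's summed signal was 927 to 1020 on pachytene and 748 to 817 on spermatid arrays.

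The let-7 miRNAs, regulators of differentiation, did not move together. Of 9 members 2 fell, 1 rose and 6 did not pass, with a median of 0.00 to 2 decimals. let-7b-5p fell by 0.51 ± 0.12 (limma adjusted p = 0.00112). Its passenger arm let-7b-3p had its signal at the floor on 4 of 5 pachytene arrays, rose by 0.53 ± 0.19 (0.0256), and was not called when blocked by slide (0.19, adjusted p = 0.387) nor without pachytene rat 25, 26 or 28 or spermatid rat 16, 25 or 28 (highest adjusted p = 0.068). let-7b-5p parted from let-7i-5p by 0.61 ± 0.09 (adjusted p = 1.09e-05 over the pairs).

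The miR-30 family likewise held both directions. Of 8 members 1 fell, 1 rose and 6 did not pass, with a median of -0.04. miR-30a-5p fell by 0.40 ± 0.07 (limma adjusted p = 0.000104), within slide 1 by 0.22 (adjusted p = 0.446). miR-30e-3p rose by 0.29 ± 0.09 (0.0144), with 0.15 and no call in the slide block (adjusted p = 0.227) and -0.05 within slide 2.

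Smaller families had 1 or 2 members that rose, and all of their medians were below 0 on the spike-in scale, those of miR-29 and miR-26 without scaling too (-0.10 and -0.02) and with normexp (-0.15 and -0.07, relative to all tested). In the miR-29 family, which targets collagens and DNA methyltransferases, miR-29a-3p rose by 0.51 ± 0.10 (limma adjusted p = 0.000411) and miR-29b-3p had 0.31 ± 0.16 (0.112), and 2 of 3 rose with a median of 0.37. In the miR-26 family miR-26a-5p rose by 0.76 ± 0.10 (1.82e-06) and miR-26b-5p had 0.15 ± 0.11 (0.30). miR-130a-3p rose by 1.07 ± 0.13 (1.37e-06) and miR-301a-3p had 0.32 ± 0.14 (0.0616). miR-152-3p, a repressor of DNMT1, was at the floor on all pachytene arrays and rose by a fitted 1.25 ± 0.17 (3.68e-06). It parted from miR-148b-3p, at 0.17 ± 0.12 (0.248), by 1.08 ± 0.23 (adjusted p = 0.000535 over the pairs). Both the rise of miR-152-3p and this difference depend on the floor. The median of the 2 miRNAs was 0.71, and 1.01 with a floor 4 times lower. miR-141-3p, the 1 member of the miR-200 family, had -0.10 ± 0.17 (0.679), and miR-290, the 1 of the pluripotency clusters, -0.26 ± 0.21 (0.32). The miR-183 cluster had no member.

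The imprinted Dlk1-Dio3 cluster depended on the slide. Of 7 members 2 rose, 1 fell and 4 did not pass, with a median of 0.34, which was 0.89 when blocked by slide, 0.29 within slide 1, 0.95 within slide 2 and -0.66 on the spike-in scale. miR-134-5p fell by 0.62 ± 0.14 (limma adjusted p = 0.000767), by 0.30 without slide 3, where it did not pass (0.116). miR-409a-3p, near the floor in pachytene spermatocytes, rose by 0.77 ± 0.24 (0.0133), but by 0.16 in the slide block (adjusted p = 0.374). miR-770-3p had 4.79, 5.13, 4.89, 4.77 and 4.88 in pachytene spermatocytes against 5.79, 6.32, 5.17, 5.06 and 4.96 in round spermatids, of which the last 3 lay on slide 3. It rose by 0.57 ± 0.23 (0.0462), and by 1.11 in the slide block (adjusted p = 1.95e-05). The call was lost without pachytene rat 13, 25, 26 or 28 or spermatid rat 15 or 16 (highest adjusted p = 0.143).

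Outside the cluster, miR-212-3p was of the same kind, with 8.11, 8.34, 8.61, 8.10 and 8.19 in pachytene spermatocytes against 8.96, 9.05, 7.91, 7.78 and 7.75. The spermatid arrays of rats 15 and 16 lay above all pachytene arrays and the 3 of slide 3 below them. Its difference was 0.02 ± 0.25 (limma adjusted p = 0.956) and 0.72 when blocked by slide (adjusted p = 2.43e-05). With each array left out it ran from -0.17 to 0.16. It is 1 of the 6 miRNAs detected on every array with the smallest absolute differences, which ran from -0.02 to 0.02.

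Detection changed with the cell type for 6 miRNAs. They were detected on all 5 arrays of one group and on none of the other, 5 of them in pachytene spermatocytes. miR-877, made from a spliced intron, had 4.57, 4.96, 4.75, 4.58 and 4.79 in pachytene spermatocytes and was at least 1.82-fold lower in round spermatids (limma adjusted p = 4.17e-08). miR-449a-3p had 4.67, 4.86, 4.05, 4.74 and 4.86 there and was at least 1.70-fold lower (4.05e-07). The other 4 were miR-351-3p, miR-181b-5p, miR-7a-2-3p and miR-20a-3p, of which the last did not pass.

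The 2 arms of a precursor are cut from 1 hairpin, and one of them is usually kept. For 33 precursors both arms were tested, and the change of the 5p arm minus that of the 3p arm was fitted on the arrays. Limma called 22 (66.7%), 13 with the 5p arm changing more upward and 9 with the 3p arm, and 12 of the 17 precursors whose arms were both detected on all 10 saline arrays. It called 11 without slide 3, 6 within slide 1, 13 within slide 2 and 12 with normexp. The arms of 3 precursors were called in opposite directions, miR-652, miR-742 and let-7b. On the spike-in scale both arms of each lay below 0, with miR-742-5p at -0.92 and let-7b-3p at -0.05. miR-742-5p rose by 0.27 and miR-742-3p fell by 0.57, a difference of 0.84 ± 0.09 (limma adjusted p = 4.38e-07), though the rise was lost when blocked by slide (0.15, adjusted p = 0.246).

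miR-652 had the largest difference, 1.69 ± 0.18 (limma adjusted p = 3.87e-07, over 33). The 5p arm miR-652-5p had 9.20, 9.25, 9.41, 8.99 and 9.12 in pachytene spermatocytes against 10.05, 10.03, 9.71, 9.44 and 9.51 in round spermatids. The 3p arm miR-652-3p had 6.80, 6.58, 6.28, 6.59 and 6.52 against 5.40, 5.54, 5.31, 5.76 and 5.08. The 5p arm rose and the 3p arm fell, both without overlap. On the spike-in scale the 5p arm stood at -0.64 and the 3p arm at -2.33, so both lay below 0 there. The difference was 2.12 within slide 1 and 1.78 within slide 2. It fell to 0.67 with normexp background correction and did not pass (adjusted p = 0.0816), with miR-652-5p at -0.04, relative to all tested.

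miR-338 parted by 1.62 ± 0.31 (limma adjusted p = 0.000235), with the 5p arm close to the floor. miR-547 parted by 1.23 ± 0.15 (1.57e-06), with a 3p arm that fell by 1.73 and a 5p arm that fell by 0.49 to near the floor. The 1.32 ± 0.18 by which the miR-143 3p arm rose above its 5p arm (5.07e-06) depends on the floor, at which the 5p arm lay on all pachytene arrays. It was 0.16 with a floor 4 times lower, where it did not pass (adjusted p = 0.273). let-7b parted by 1.04 ± 0.23 in favour of the 3p arm (0.000751), and by 0.44 within slide 1 without passing (adjusted p = 0.313).

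miR-34c parted by 1.12 ± 0.39 in favour of the 5p arm (limma adjusted p = 0.0174). The 3p arm miR-34c-3p had 6.70, 7.66, 6.77, 7.38 and 6.28 in pachytene spermatocytes against 5.36, 7.01, 5.59, 6.67 and 6.92 in round spermatids, with overlapping groups. The difference was 1.08 when blocked by slide (adjusted p = 0.065), 2.38 within slide 1 and -0.12 within slide 2 (adjusted p = 0.828). It did not pass without spermatid rat 15 (0.78, adjusted p = 0.0503) or 17 (0.85, adjusted p = 0.0603).

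**Figure D4:**
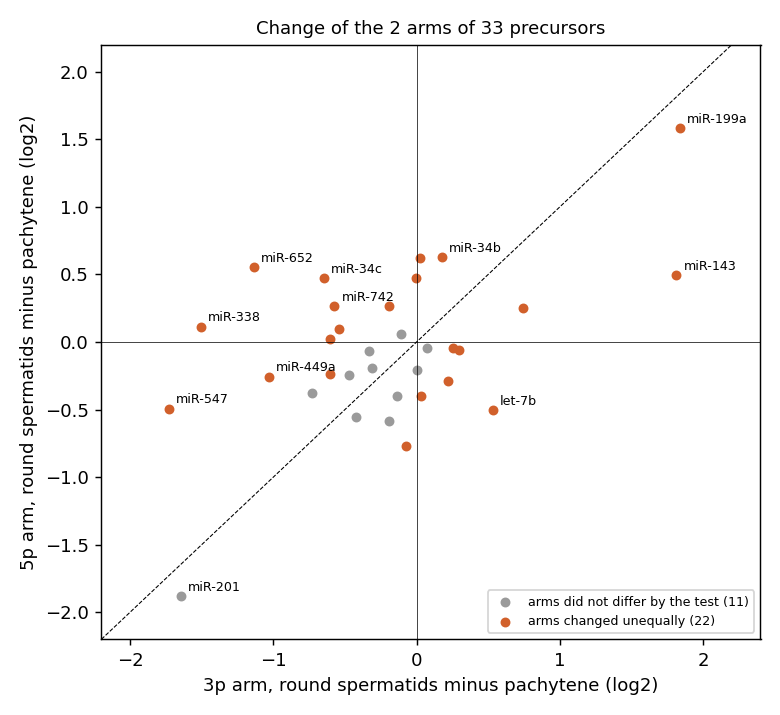
Change of the 5p arm against change of the 3p arm (round spermatids minus pachytene spermatocytes, log2) for 33 precursors, with a line where both are equal. The 22 called precursors lie off the line, among them miR-652, whose arms moved by 0.55 and -1.14. On the spike-in scale both arms of miR-652 lie below 0.

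The cell type comparison was also made in the cyclophosphamide rats, whose arrays the choice of the 209 did not use. There limma called 117 of 217 (53.9%). Of the 105 miRNAs called in saline rats, all 105 had the same sign and 96 were called in cyclophosphamide rats as well. miR-7a-5p had 4.86 ± 0.17 (SD, n = 5) in pachytene spermatocytes and 8.27 ± 0.38 in round spermatids of these rats, and miR-34a-5p 10.31 ± 0.18 and 8.40 ± 0.49. The difference of the cell type effect between treatments was tested directly. Limma called 0 of 217, and 1 had an unadjusted p under 0.05.

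**Figure D5:**
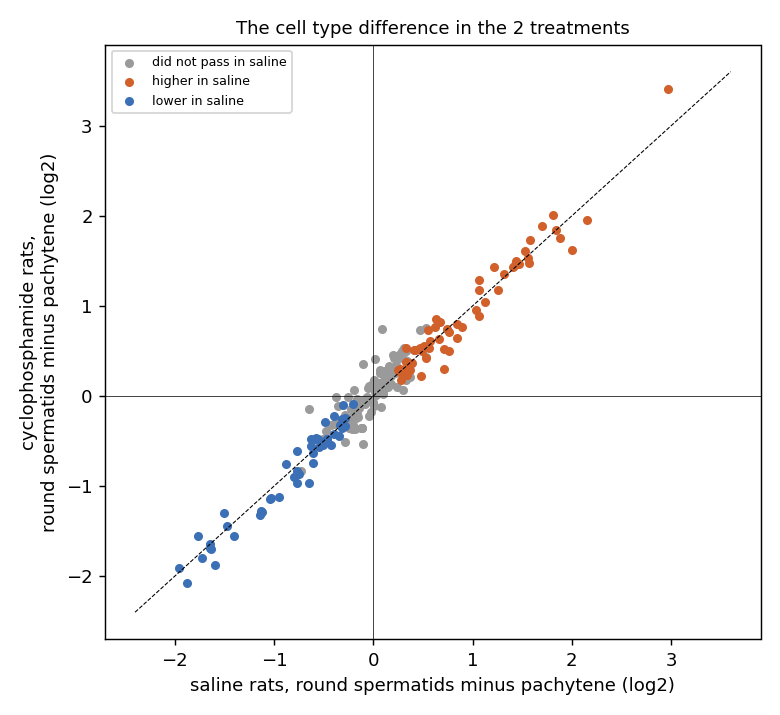
Round spermatids minus pachytene spermatocytes (log2) in cyclophosphamide rats against saline rats for the 209 miRNAs, coloured by the limma call in saline rats, with a line where both are equal. All 105 called miRNAs have the same sign in both, miR-7a-5p lies at the upper end and miR-34a-5p and miR-201-5p at the lower.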

How the data were processed

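The deposited values are Cy3 intensity from 20 one-colour rat miRNA arrays in 4 groups of 5, with the background already subtracted by the scanner's software, per the file headers. The submitters' processing notes name Agilent Feature Extraction 11.5.1.1. Each array holds 14255 spots, of which 715 control spots were left out and 0 others were saturated. Each array was scaled to its 75th percentile, taken over 2176 spots well above background on all arrays. Signals under a floor of 12.17 were set to it and log2 transformed, which gives 3.61, and the brightest probe stood for each of 677 miRNAs. A miRNA was tested where all 5 arrays of a group detected it.

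limma 3.58.1 in R 4.3.3 fitted the 4 groups together, leaving 16 residual degrees of freedom, with Benjamini-Hochberg adjustment over the 217 tested miRNAs. The script was tested on simulated data. A bound ("at least N-fold") sets the bright group's mean against, on each array of the dim group, the lowest signal of any probe well above background, or the dim probe's own signal where that is higher. The p of such a miRNA is that of its fitted difference and does not test the bound. Python 3.11.15 with matplotlib 3.10.9 drew the figures. The number of arrays limits the precision.

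Alternatives were the scaling, background correction (normexp with an offset of 50, on the median signal), probe summary, filter, floor, samples fitted, array weights, slide, scan date, shared rat numbers and each array left out. The authors' deposited log2 table, centred by miRNA and of unstated normalization, served only as an alternative for 44 miRNAs whose rows matched the scanner values. The test of pairs that share a seed, the centring on the median and the spike-in scaling without slide 3 were added after seeing the data. The members and lists were chosen with earlier results of these data known. Same-numbered arrays of the 2 cell types were not treated as pairs.

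Named miRNAs were the 12 largest increases and 12 largest decreases among called miRNAs detected on all 10 arrays, up to 8 detected in 1 group only, the 5 brightest of each group, both extremes of each list, up to 6 precursors whose arms differed most, the 4 calls nearest to the threshold, and the 6 smallest differences, given as a range. Others were named after their values were seen, for the families and neighbours they belong to.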

Additional observations from a re-analysis of the deposited data

Results flagged for a closer look

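In 11 of the 154 groups of 5 arrays tested, over 84 named miRNAs, 1 array lay far from the other 4, with a gap over 0.71 of the group's range. Chance flags about 1 in 20 such groups. Values are log2 signals. miR-338-3p had 4.74 on the pachytene array of rat 16, below the next at 5.60, and 4.72 on the spermatid array of rat 17, above the next at 3.92. The pachytene array of rat 25 had 4.05 for miR-449a-3p, with the next at 4.67, 6.27 for miR-883-5p, with the next at 6.43, 7.96 for miR-106b-5p, above the next at 7.53, and 3.88 for miR-133b-3p, above the next at 3.64. The pachytene array of rat 16 had 6.29 for miR-134-5p, above the next at 5.98. The spermatid array of rat 25 had 3.77 for miR-7a-2-3p, below the next at 4.33. The spermatid array of rat 16 had 3.90 for miR-15b-3p, above the next at 3.63, 5.12 for miR-30e-3p, below the next at 5.43, and 4.00 for miR-881-3p, above the next at 3.88.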

How the results depend on the processing

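With each array left out in turn limma called 51 to 60 higher and 43 to 52 lower, and 94 to 103 of the 105 calls remained. Unequal arms then numbered 18 to 24, unequal seed pairs 44 to 54, and the difference in detected miRNAs ran from -26.9 to -7.15. With 1 array left out, miR-15b-3p ran from -0.03 to 0.04 and miR-212-3p from -0.17 to 0.16, and each of the 6 smallest differences changed sign without 1 array or another. Where a scaling or normexp moved the median of all tested miRNAs by over 0.1, the values here are relative to that median.

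Fewer miRNAs were called without scaling (35 higher, 27 lower), with normexp (10 higher), within slide 1 (34 and 22) and on the spike-in scale without slide 3 (34 and 20). Unequal arms numbered 12 with normexp, 6 within slide 1, 13 within slide 2, 11 without slide 3 and 12 among precursors with both arms detected on all 10 arrays. Unequal seed pairs numbered 23 within slide 1. The slide as a block kept 86 of the 105 calls, the scan date 81 and array weights 103. Of 17 calls among the miRNAs of the authors' deposited table, 15 remained there.

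Rat numbers 16, 25 and 28 occur in both cell types, but same-numbered arrays did not deviate together (r = 0.0716, 0.1835 and -0.2957). The labels do not state whether such arrays share an animal, and 3 correlations cannot decide it. A replicate block on these 3 numbers, which leaves 4 fewer saline arrays and 2 residual degrees of freedom, gave 36 higher and 27 lower, 8 unequal arms and 21 unequal seed pairs. As a random block it gave 58 and 50.

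Directions changed as follows, and the cause was not tested. Values under a scaling or normexp are relative to the median of all tested. With normexp miR-34b-5p was -0.01, miR-34c-5p -0.16, miR-16-5p -0.22, miR-19b-3p -0.19, miR-883-5p -0.04, miR-29a-3p -0.10, miR-29b-3p -0.23, miR-26b-5p -0.28, miR-20a-3p 0.05, miR-141-3p 0.12, miR-881-3p 0.06, miR-212-3p -0.40, let-7i-5p -0.32, miR-742-5p -0.03 and miR-652-5p -0.04. On the spike-in scale, relative to its median of -0.98, miR-181b-5p was 0.0083, miR-20a-3p 0.29, miR-148b-3p -0.03, miR-141-3p 0.12, miR-26b-5p -0.06, miR-212-3p -0.19, let-7i-5p -0.10 and miR-146b-5p -0.02. Without the centring all of these lay below 0, and 27 of the 57 miRNAs that rose stayed above 0. On that scale without slide 3 miR-20a-3p was 0.08, miR-883-5p -0.07, miR-30e-3p -0.09, miR-29b-3p -0.17, miR-148b-3p -0.18, miR-26b-5p -0.17, miR-301a-3p -0.11, let-7i-5p -0.32, miR-146b-5p -0.02, miR-742-5p -0.06 and miR-141-3p 0 to 2 decimals. Within slide 1 let-7b-3p was -0.13, miR-15b-3p -0.03 and let-7i-5p -0.04. Within slide 2 miR-30e-3p was -0.05, miR-29b-3p -0.35, miR-148b-3p -0.19, miR-301a-3p -0.04, miR-290 0.63, miR-150-3p 0.29, miR-34c-3p 0.19, let-7i-5p -0.03, miR-146b-5p -0.12 and the arm difference of miR-34c -0.12. miR-15b-3p was -0.06 with quantile normalization and -0.09 with a floor 4 times lower. miR-141-3p was 0.02 without scaling, 0.12 with array weights and 0.0044 with the replicate block. miR-212-3p was -0.08 with the percentile over all probes, -0.07 with the total gene signal, -0.09 without scaling, -0.03 with Agilent's gene signal, -0.18 with array weights and -0.19 with the replicate block, where miR-146b-5p was -0.03. Without slide 3 let-7i-5p was -0.03. miR-290 and miR-150-3p were 0.13 and 0.09 with the slide as a block, 0.20 and 0.14 without slide 3, and 0.10 and 0.11 with the scan date as a block. Signals at the floor have no order, which limits what the dimmest miRNAs can show.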
